A study of Mus musculus with 6 samples.

Results

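The genes described here are 43 mouse genes of DNA repair and DNA damage signalling, read through every array probe set whose only annotated gene symbol is 1 of them. That rule found 96 probe sets for all 43 genes, among 45037 probe sets of the array that are not controls. The list was drawn up by gene name, with earlier results of these data known. The cells were hematopoietic stem cells from the bone marrow of male C57Bl/6 (CD45.1) mice, 10 weeks old. They were sorted as Lineage-, Sca-1+ and c-Kit+ cells of the side population, which stains weakly because its cells export a DNA-binding dye, and were taken from a gate low or high in that population. The labels name no transgene, deletion or treatment in either fraction. The 2 fractions, Lower-SP and Upper-SP, had 3 arrays each, from 3 pools of mice sorted on different days, and the labels do not say whether arrays of the same number share a pool. Sorted cells were run again as a check of purity.

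Cells repair DNA by several routes, each suited to a kind of lesion. Nucleotide excision repair cuts out bulky lesions, base excision repair removes damaged bases, mismatch repair corrects copying errors, and breaks of both strands are sealed by end joining or by recombination with an intact copy. Kinases such as ATM and ATR sense damage and halt the cell cycle. Hematopoietic stem cells are mostly quiescent, a state in which end joining is the main route for breaks of both strands because recombination needs a replicated copy, and inherited loss of Fanconi anaemia genes leads to bone marrow failure.

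Levels and differences below are on the log2 scale of the deposited array summaries, each difference is Lower-SP minus Upper-SP, and means are given ± SD with n = 3. A probe set was tested where 3 or more of the 6 arrays read over log2 4, and it was called changed at an adjusted p under 0.05 in limma, adjusted over all 19613 tested probe sets. Across tested probe sets, pairs of arrays from 1 fraction correlated at 0.952 to 0.991 and pairs from different fractions at 0.911 to 0.938. All 11 stem cell markers found on the array were tested, while 4 of 5 erythroid, 5 of 6 T and NK cell and 4 of 9 B and plasma cell markers read under log2 4 on every array. The 8 tested neutrophil markers averaged 10.38, 9.85 and 6.64 on Lower-SP replicates 1, 2 and 3, against 6.30, 6.58 and 5.26 in Upper-SP. Of these 8, 4 were called higher (S100a8, S100a9, Lcn2 and Chil3) and 1 lower (the granule gene Prtn3, -0.60, at 11.42 to 12.12 on every array), while Ngp, Camp and Ltf did not pass. The granule genes Elane, Ctsg and Fcnb stayed under log2 3 on every array and Mpo reached 4.25 on 1. The 18 tested proliferation markers averaged 8.36, 8.02 and 7.51 in Lower-SP and 7.75, 7.63 and 7.63 in Upper-SP. Calls among the tested markers were 4 lower of 11 for stem cells, 1 higher of 18 for proliferation, 1 higher of 2 for macrophages, 1 higher of 4 for megakaryocytes, 1 lower of 4 for B and plasma cells, 1 lower of 1 for T and NK cells and 0 of 1 for erythroid cells in limma. The 4 lower stem cell markers were Flt3 (-2.22), Cd34 (-1.41), Abcg2 (-1.045) and Kit (-0.92). Procr, Slamf1, Meis1, Mecom, Hlf, Tek and Gata2 did not pass. In such bulk samples a smaller share of cells that carry a transcript and less of it per cell cannot be told apart.

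Of the repair probe sets that differed between the fractions, 7 of 8 were lower in Lower-SP, and lower calls also outnumbered higher ones over the whole array (3430 against 2090). The damage-recognition pair Ddb1 and Ddb2, the kinase gene Atm, the Ku subunit gene Xrcc5 and the break-binding gene Rad50 were lower at the brightest tested probe set of each. One of the probe sets of Apex1 was also lower, and a dim probe set of Atr was the only one higher. Most of the list did not pass the test.

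Of the 96 probe sets, 57 were bright enough to test, and 8 of these were called, 7 lower and 1 higher in Lower-SP. That is 14.0% of the tested repair probe sets, against 28.1% of all tested probe sets. In the lower direction the shares were 12.3% and 17.5%, and in the higher direction 1.75% and 10.7%. With cyclic loess scaling the calls were 6 lower and 2 higher, beside 12.4% and 13.2% of all probe sets (25.6% in all). The median difference of the 57 was -0.22, and that of all tested probe sets was -0.14. Read by gene, through its brightest tested probe set, 5 of 38 genes were lower and 0 higher, against 20.7% and 7.05% of 9460 genes. Before adjustment 7 of these 38 genes had p under 0.05 in limma, beside 3965 of all 9460 genes. Limma was the one tool run, with a trend in the main fit. The count of lowered genes turned on single arrays, and the share of all genes called lower moved with it. Leaving out Upper-SP replicate 1 left 1 (background 4.43%), leaving out Upper-SP replicate 2 left 2 (8.3%), and leaving out Lower-SP replicate 1 or 2 left 3 each (13.1% and 10.4%). The count stayed at 5 without Lower-SP replicate 3 (24.4%), and 6 were called when Upper-SP replicate 3 was dropped (22.5%). Quantile normalization, median centring and cyclic loess moved the median of all genes from -0.24 to between -0.15 and -0.12.

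**Figure D1:**
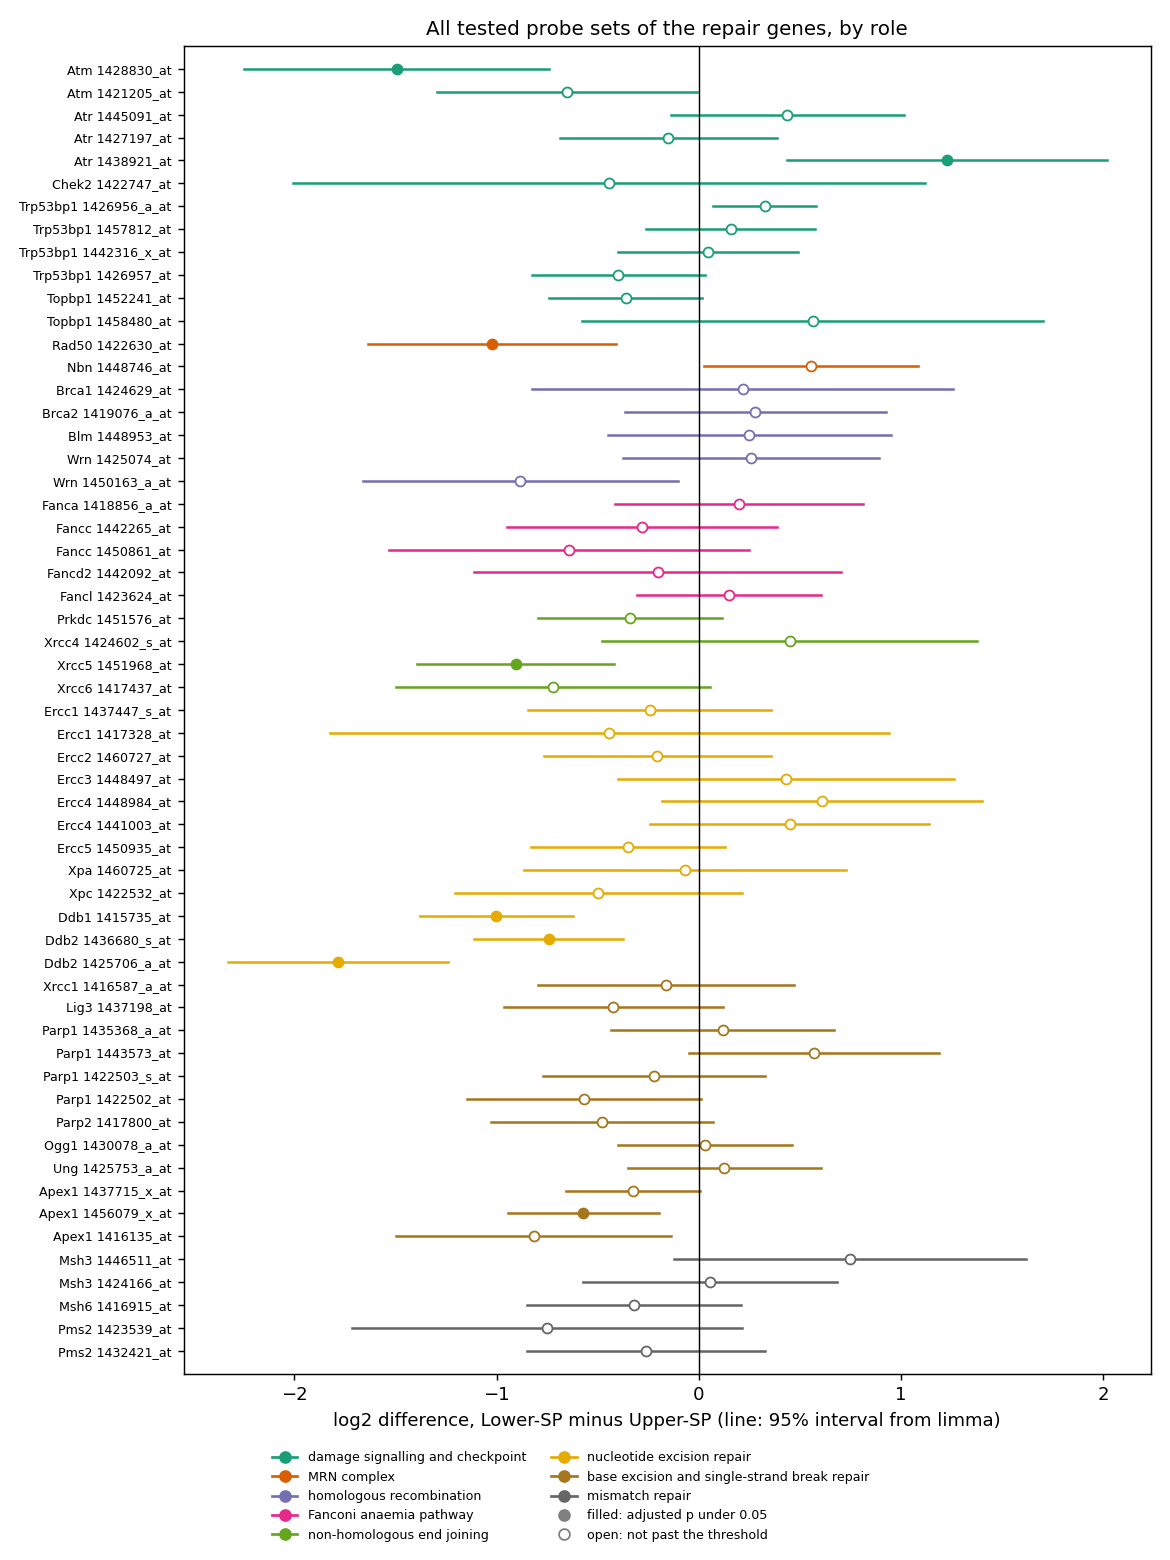
The log2 difference, Lower-SP minus Upper-SP, with its 95% interval from limma (horizontal axis) for each of the 57 tested repair probe sets (vertical axis), coloured by repair route. The 8 filled points passed the adjusted threshold; 7 of them lie to the left of 0, and 49 open points did not pass.

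In 20 of the 57 probe sets the fractions did not overlap, with 16 lower and 4 higher in Lower-SP, where 46.1% of all tested probe sets did not overlap (27.9% lower, 18.2% higher). The 16 tested repair probe sets annotated to a RefSeq mRNA included 2 called lower and 0 higher. Of all such probe sets 26.4% were lower and 3.61% higher, 30% in all. Before adjustment 5 of the 16 had p under 0.05 in limma, beside 1232 of all 2687. The 41 named by other sequences included 5 lower and 1 higher, beside 16.7% and 9.94%, or 26.7% in all.

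Upstream sequence was available for 3 of the 5 genes lowered at their brightest probe set, and is shown so that the starts of these genes can be compared. Each line gives the 250 bases before the annotated start, from RefSeq on GRCm38.p6, in lower case, with capitals marking a motif found on either strand. The motifs searched were the GC box, spelled GGGCGG, and the CCAAT box, which is named by its letters. The core of the NRF1 site, spelled TGCGCA, was searched too. The E2F site was searched as TTTCCCGC or TTTGGCGC. The Atm window is chr9:53536672-53536921 on the minus strand, that of Xrcc5 is chr1:72307171-72307420 on the plus strand and that of Ddb1 is chr19:10605347-10605596 on the plus strand.
Atm: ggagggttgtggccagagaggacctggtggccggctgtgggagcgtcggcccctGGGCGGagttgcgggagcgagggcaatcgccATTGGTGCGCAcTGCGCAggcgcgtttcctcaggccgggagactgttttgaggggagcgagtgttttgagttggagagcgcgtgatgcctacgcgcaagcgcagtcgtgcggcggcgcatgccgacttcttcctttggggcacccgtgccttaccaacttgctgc
Xrcc5: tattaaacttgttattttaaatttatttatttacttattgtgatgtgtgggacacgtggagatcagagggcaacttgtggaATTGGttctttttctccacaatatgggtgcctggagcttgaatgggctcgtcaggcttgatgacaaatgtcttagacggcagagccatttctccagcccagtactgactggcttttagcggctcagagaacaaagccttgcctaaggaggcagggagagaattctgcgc
Ddb1: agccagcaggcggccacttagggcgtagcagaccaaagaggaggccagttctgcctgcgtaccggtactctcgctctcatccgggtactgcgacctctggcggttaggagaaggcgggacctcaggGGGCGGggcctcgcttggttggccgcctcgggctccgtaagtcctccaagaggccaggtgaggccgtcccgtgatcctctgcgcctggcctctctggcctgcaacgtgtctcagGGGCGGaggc

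The windows differed in make-up. Atm held 1 GC box, 1 CCAAT box (read as ATTGG on this strand) and 2 NRF1 cores, of which 1 begins at the base after the CCAAT box. Ddb1 held 2 GC boxes, the nearer of them starting 10 bases before the start, and Xrcc5 held 1 CCAAT box alone of the motifs searched. G and C made up 66.0% of the Atm window, 67.2% of that of Ddb1 and 44.8% of that of Xrcc5. None of the 4 motifs was thus in all 3 windows, while Atm and Ddb1 both held a GC box and Atm and Xrcc5 both held a CCAAT box. The promoter table matched 35 of the 43 genes, of which 22 held a GC box (62.9%, against 32.7% of 32851 promoters and 42.6% of the 21263 of protein-coding genes) and 16 a CCAAT box (45.7%, 33.8% and 35.4%). An NRF1 core was in 7 of them (20%, 6.43% and 8.06%). The E2F letters were in 5, those of Brca2, Chek2, Fancg, Msh3 and Xrcc6 (14.3%, 1.30% and 1.67%). Fancg was too dim to test and none of the others was called, where 27.7% of all genes were. So few genes cannot show a link between these letters and the calls. The repair windows were richer in G and C, with a median of 58.8% against 52.4% over all promoters and 55.6% over those of protein-coding genes, and the part of this in the motif shares was not tested.

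In nucleotide excision repair 3 of 12 tested probe sets were called, all lower and from 2 genes, a share of 25% beside 28.1% of all tested probe sets. Ddb1 and Ddb2 encode the subunits of the complex that finds ultraviolet lesions in chromatin, DDB1 also being the adaptor of CUL4 ubiquitin ligases. Ddb1 read 9.28, 9.07 and 9.36 in Lower-SP and 10.35, 10.36 and 10.00 in Upper-SP. All Lower-SP arrays lay under all Upper-SP arrays, with a gap wider than the range within either fraction, and the difference was -1.001 (SE 0.16, 2.00-fold, adjusted p = 0.0060). Ddb2 read 5.92, 5.95 and 6.26 against 7.91, 8.06 and 7.51 at its dimmer probe set, and 8.87, 8.54 and 8.61 against 9.41, 9.48 and 9.37 at its brighter one. Neither overlapped. The dimmer probe set gave the largest fall of the list, -1.78 (SE 0.24, 3.44-fold, adjusted p = 0.0035), and the brighter one -0.74 (SE 0.16, 1.67-fold, adjusted p = 0.014). The dimmer one was called in all 19 alternatives run. The brighter one missed the threshold when Lower-SP replicate 2 (-0.67), Upper-SP replicate 1 (-0.75) or Upper-SP replicate 2 (-0.71) was dropped. With Lower-SP replicate 3 alone standing for its fraction, Ddb1 differed by -0.88 and missed the threshold (adjusted p = 0.061).

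The remaining excision repair genes did not pass. Xpc, which recognises distorted DNA, read 6.18, 6.38 and 6.21 against 6.83, 6.16 and 7.27, with overlapping fractions (-0.50, SE 0.31). The TFIIH helicase genes Ercc2 and Ercc3 differed by -0.21 and 0.43, and the scaffold gene Xpa by -0.07 at a dim probe set. The nuclease gene Ercc5, which cuts on the 3′ side of the lesion, differed by -0.35. Ercc4 and Ercc1, which encode the partners of the 5′ nuclease, differed by 0.61 and -0.24 at their brightest probe sets. Ercc4 read 5.85, 5.86 and 6.996 in Lower-SP and 5.71, 5.68 and 5.49 in Upper-SP, so its higher mean came mainly from Lower-SP replicate 3.

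**Figure D2:**
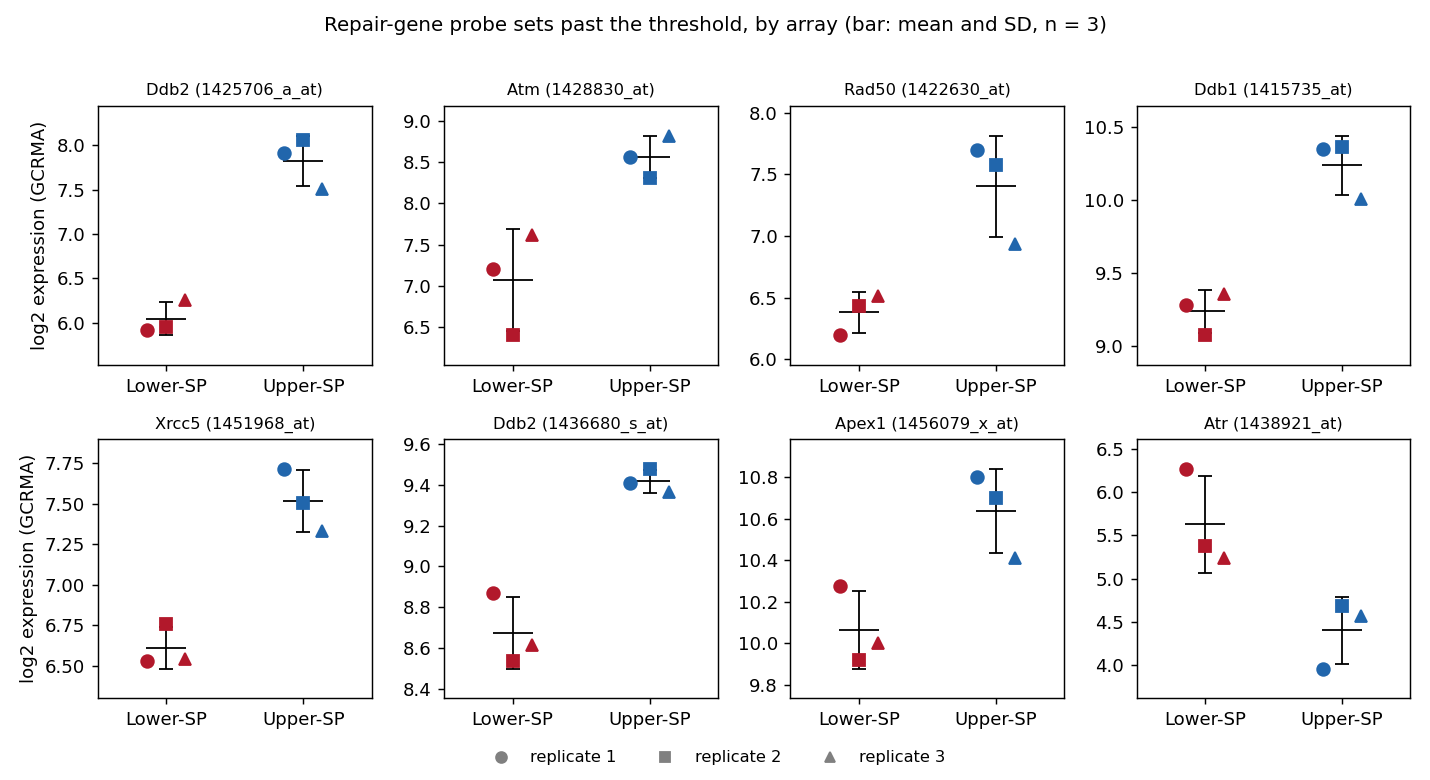
Log2 expression (vertical axis, a scale for each panel) of the 8 repair probe sets past the threshold on each Lower-SP (red) and Upper-SP (blue) array, with the mean and SD of each fraction and a symbol for each replicate. The fractions do not overlap in any panel; Atr, from 5.25 to 6.27 against 3.96 to 4.69, is the panel in which Lower-SP is higher.

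Among the genes of damage signalling, 2 of 12 tested probe sets were called, 1 of Atm lower and 1 of Atr higher. That is 16.7%, beside 28.1% of all tested probe sets. ATM is the kinase activated by breaks of both strands. Its brighter probe set read 7.20, 6.40 and 7.62 in Lower-SP and 8.56, 8.31 and 8.83 in Upper-SP. The fractions did not overlap, with a wider spread in Lower-SP (SD 0.62 against 0.26), and the difference was -1.49 (SE 0.33, 2.82-fold, adjusted p = 0.015). The dimmer probe set, at 5.58, 5.30 and 6.19 against 6.30, 6.43 and 6.29, was lower on every Lower-SP array too but missed the threshold (-0.65, SE 0.28, adjusted p = 0.11). The call at the brighter probe set was lost without Upper-SP replicate 1 (-1.49, adjusted p = 0.068) and with no filter on low values. From Lower-SP replicate 3 alone the difference was -0.94, less by over 1.5 times, and the call was lost too (adjusted p = 0.082).

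Atr, the kinase that answers stalled replication forks, gave a different picture at each of its 3 tested probe sets. The dimmest read 6.27, 5.37 and 5.25 in Lower-SP and 3.96, 4.69 and 4.56 in Upper-SP, a rise of 1.23 (SE 0.34, 2.34-fold, adjusted p = 0.032). That call was lost in 8 of 18 alternatives, among them 5 of the 6 in which 1 array was left out, with differences of 0.91 to 1.37 there, and it was kept without Lower-SP replicate 3. The brightest differed by 0.44 and the other by -0.15, both with overlapping fractions. Atr was therefore not called by gene.

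Trp53bp1, whose protein steers breaks toward end joining, was the brightest of the repair probe sets. It read 12.997, 13.18 and 12.88 in Lower-SP and 12.62, 12.64 and 12.82 in Upper-SP, higher on each Lower-SP array by a narrow margin (0.33, SE 0.11, adjusted p = 0.061). This difference passed in 5 alternatives, which were quantile normalization (0.45), cyclic loess (0.52), array weights (0.45) and leaving out replicate 3 of Lower-SP (0.39) or of Upper-SP (0.39). Its other tested probe sets differed by 0.16, 0.05 and -0.40. Chek2, the effector kinase downstream of ATM, read 8.46, 8.42 and 5.71 in Lower-SP and 7.95, 8.05 and 7.93 in Upper-SP. Lower-SP replicate 3 lay 2.71 under the nearer of the other Lower-SP arrays, so the difference of -0.44 (SE 0.67) has no stable sign: it was 0.46 without that array. Topbp1, the activator of ATR, differed by -0.36 at its brighter probe set, where the fractions did not overlap, and by 0.56 at the dimmer one, where they did. Neither passed.

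Of the MRN complex, which binds broken ends and activates ATM, Rad50 fell. Its probe set read 6.20, 6.43 and 6.51 in Lower-SP and 7.70, 7.58 and 6.93 in Upper-SP, without overlap. The difference was -1.02 (SE 0.26, 2.03-fold, adjusted p = 0.025), and it missed the threshold in 4 of the 6 alternatives with 1 array left out (replicate 1 or 2 of either fraction), where it ran from -1.05 to -0.87. Nbn, the NBS1 subunit of the same complex, read 5.90, 6.16 and 5.87 against 5.25, 5.66 and 5.34. It was higher on each Lower-SP array and did not pass (0.56, SE 0.23, adjusted p = 0.10).

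Of 4 end joining genes that could be tested, 1 was called lower, beside 20.7% of all genes, and 3 had a negative difference, as did 6089 of all 9460. Xrcc5 encodes Ku80, which with Ku70, the product of Xrcc6, clamps onto broken ends. Xrcc5 read 6.53, 6.76 and 6.54 in Lower-SP and 7.71, 7.50 and 7.33 in Upper-SP, a clear separation, with a difference of -0.91 (SE 0.21, 1.87-fold, adjusted p = 0.018). That call was lost without Lower-SP replicate 1 (-0.87), Upper-SP replicate 1 (-0.81) or Upper-SP replicate 2 (-0.91). Xrcc6 read 7.25, 6.26 and 7.51 against 7.82, 7.85 and 7.52. The fractions did not overlap, but the highest Lower-SP array read nearly the same as the lowest Upper-SP array, and the difference of -0.72 (SE 0.34) did not pass (adjusted p = 0.14). Prkdc, the DNA-dependent kinase recruited by Ku, read 7.89, 7.89 and 7.50 against 8.20, 7.99 and 8.12 (-0.34, SE 0.20). Xrcc4, the partner of the end-joining ligase, differed by 0.45 at a probe set near the bottom of the tested range, and the ligase gene Lig4 was not tested, with values of 3.03 to 3.28.

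In base excision and single-strand break repair no gene was called at its brightest probe set, 0 of 7 beside 27.7% of all genes. Before adjustment 0 of 7 had p under 0.05 in limma, beside 3965 of all 9460. Apex1, the endonuclease that cuts at sites without a base, was lower on every Lower-SP array at all 3 of its tested probe sets. The middle one in brightness read 10.28, 9.92 and 10.00 against 10.80, 10.70 and 10.41, and was called (-0.57, SE 0.16, 1.49-fold, adjusted p = 0.034). The brightest, at 11.04, 10.96 and 10.62 against 11.29, 11.15 and 11.17, differed by -0.33 (adjusted p = 0.12). The dimmest, at 8.22, 8.10 and 7.23 against 8.85, 8.78 and 8.37, differed by -0.82 (adjusted p = 0.073). Both brighter probe sets have names ending in _x_at, which marks probes that can bind other transcripts. The call was lost with cyclic loess (-0.38), with quantile normalization (-0.41), with no filter on low values and with no trend in limma. It was also lost in 4 of the 6 alternatives with 1 array left out (without Lower-SP replicate 2 or 3, or Upper-SP replicate 1 or 2). The difference there ran from -0.54 to -0.49.

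Parp1, which binds nicks and builds ADP-ribose chains, had 4 tested probe sets that did not agree in sign. They differed by 0.12, 0.57, -0.22 and -0.57 from the brightest to the dimmest, and none passed. Parp2 read 8.85, 8.78 and 9.30 against 9.59, 9.75 and 9.03, with overlapping fractions (-0.48, SE 0.24). The scaffold Xrcc1 differed by -0.16 and its ligase partner Lig3 by -0.42. Ung, the glycosylase that removes uracil, differed by 0.12, with values of 8.38 to 8.97 over the 6 arrays. Ogg1, the glycosylase for oxidised guanine, read 4.56 to 4.64 on all 6 arrays, just above the level for testing.

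**Figure D3:**
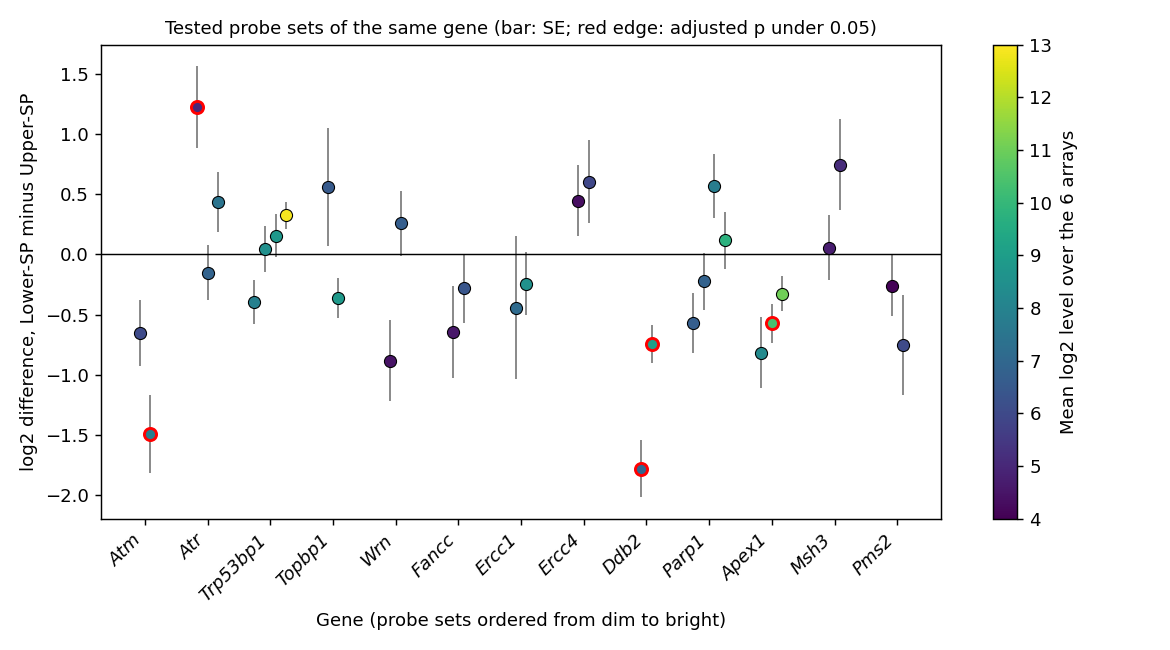
The log2 difference, Lower-SP minus Upper-SP, with its SE (vertical axis) at each tested probe set of the 13 repair genes with several (horizontal axis), coloured by mean log2 level, with a red edge where the adjusted p was under 0.05. Ddb2, at -1.78 and -0.74, is the gene with more than 1 probe set called, and the probe sets of Atr, Trp53bp1, Topbp1, Wrn and Parp1 lie on both sides of 0.

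Homologous recombination genes were not called, with 0 of 5 tested probe sets past the threshold beside 28.1% of all. Before adjustment 1 of the 5 had p under 0.05 in limma, beside 8182 of all 19613. Brca1, which promotes resection of broken ends, was dim and variable, at 5.78, 4.95 and 4.19 against 4.88, 4.12 and 5.27. Brca2, a mediator of recombination, read 8.29, 8.05 and 8.50 against 8.23, 8.35 and 7.42. The fractions overlapped in both, with differences of 0.22 (SE 0.45) and 0.28 (SE 0.28). The helicase gene Blm differed by 0.25. The helicase gene Wrn differed by 0.26 at its brighter probe set and by -0.88 at its dimmer one, which read 4.20, 4.19 and 3.66 against 5.08, 5.396 and 4.22 (adjusted p = 0.086). Palb2, which links BRCA1 to BRCA2, and Rad51c were not tested, with highest values of 3.85 and 2.56.

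The Fanconi anaemia genes, which act together on crosslinks between the strands, gave little signal on this array: 10 of their 15 probe sets were too dim to test. Fancl, the ubiquitin ligase of the pathway, was the brightest of those tested and changed little, at 7.11, 7.002 and 7.07 against 6.92, 7.02 and 6.79 (0.15, 95% interval -0.30 to 0.60). The core complex gene Fanca differed by 0.20 and the core complex gene Fancc by -0.28 and -0.64 at its 2 tested probe sets. Fancd2, the protein that the pathway marks with ubiquitin, read 4.63, 4.35 and 4.42 against 4.30, 4.10 and 5.61 at the 1 of its 4 probe sets that could be tested (-0.20). None passed. Its partner Fanci reached 4.55 on Upper-SP replicate 2 alone and was not tested, and Fancg stayed at or under 3.29.

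Mismatch repair genes had 0 of 5 probe sets called, beside 28.1% of all, and 0 with p under 0.05 before adjustment in limma, beside 8182 of 19613. Msh6, the subunit that recognises single mismatches, read 8.76, 8.24 and 8.04 against 8.78, 8.46 and 8.75 (-0.32, SE 0.23). Msh3, which takes its place for larger loops, read 5.95, 5.84 and 4.62 against 4.99, 4.67 and 4.50 at its brighter probe set. Lower-SP replicates 1 and 2 were high and replicate 3 was within the Upper-SP range, and the difference of 0.75 (SE 0.38) did not pass. Pms2, a subunit of the endonuclease that nicks the mismatched strand, read 5.98, 5.99 and 4.95 against 6.18, 5.87 and 7.12 (-0.75, SE 0.42).

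Several of these genes set Lower-SP replicate 3 apart. In 6 of the 57 probe sets, those of Chek2, Ercc1, Topbp1, Fancc, Msh3 and Pms2, it lay more than 1 log2 unit under both other Lower-SP arrays, and in 1, of Ercc4, more than 1 above. Together these are 7 of 57, where 8.31% of all tested probe sets set that array apart by as much (4.42% under, 3.89% above). Neither Lower-SP replicate 1 nor replicate 2 stood apart so far in any repair probe set, where 1.34% and 0.92% of all tested probe sets did. Upper-SP replicate 3 stood apart in 2, under in the dimmer one of Ercc1 and above in 1 of Fancd2, beside 3.87% of all. Ercc1 at its dimmer probe set read 7.41, 7.73 and 5.53 in Lower-SP and 7.58, 7.86 and 6.56 in Upper-SP. Fancc at its dimmer probe set read 4.77, 4.57 and 3.29 against 4.95, 4.90 and 4.69. Within Lower-SP the averages of 6 of the 8 marker lists were also lowest on replicate 3, by most for neutrophil markers and for B and plasma cell markers (6.66, 6.52 and 4.38, against 7.46, 7.64 and 7.09 in Upper-SP), and by less for proliferation, macrophage, T and NK cell and stem cell markers. Within Upper-SP the same 6 lists and the megakaryocyte list were lowest on replicate 3 too, with proliferation barely so (7.627, against 7.632 on replicate 2). Their part in these values was not tested. None of the 8 called probe sets was among those 7. Such a gap also widens the SE on which a call rests, so no conclusion is drawn from this.

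**Figure D4:**
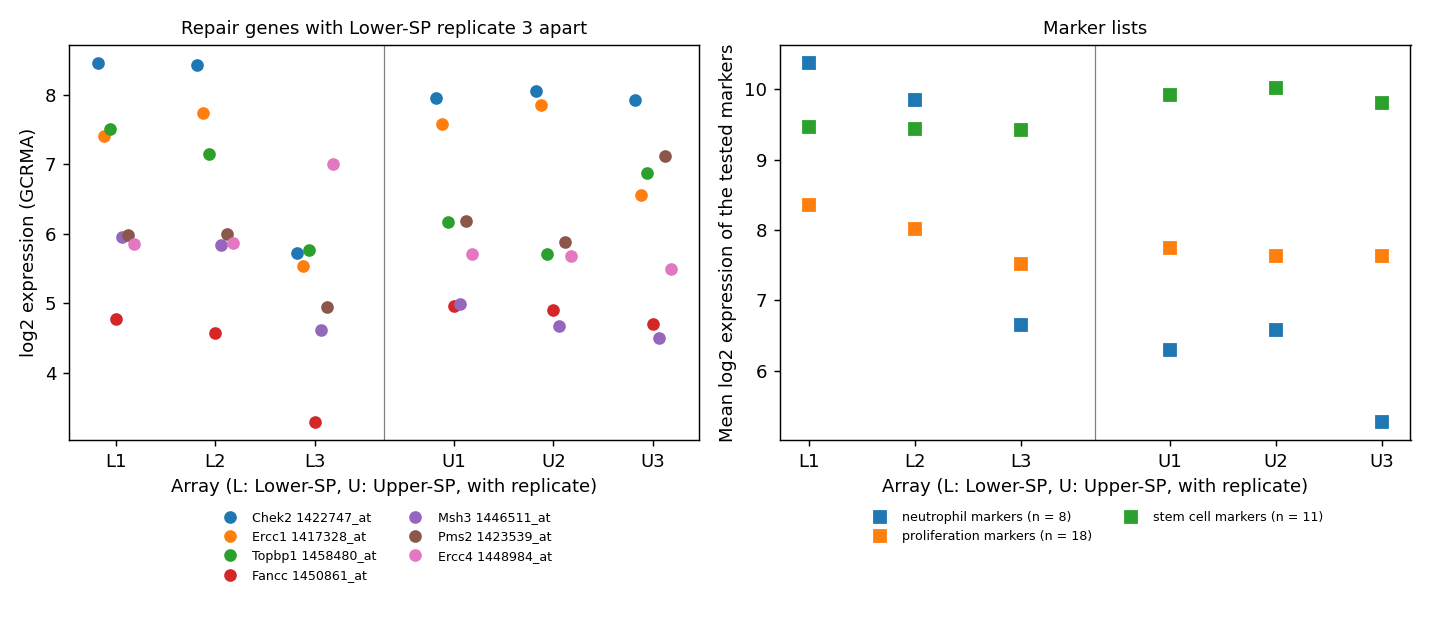
Left, log2 expression (vertical axis) on each array (horizontal axis) of the 7 repair probe sets in which Lower-SP replicate 3 (L3) lies more than 1 log2 unit from both other Lower-SP arrays, with Chek2 at 8.46, 8.42 and 5.71. Right, the mean log2 expression of the tested neutrophil, proliferation and stem cell markers on the same arrays, with the neutrophil markers at 10.38, 9.85 and 6.64 in Lower-SP.

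Other repair genes were taken from these routes and from a further class, synthesis past lesions and direct reversal of damage. Of 142 names 124 were on the array and 99 could be tested. They were called at 28.3% (28 genes), beside 27.7% of all genes. Lower were 16 and higher 12, beside 20.7% and 7.05% of all genes, and with cyclic loess 12 and 15, beside 14.5% and 9.76%. The further class, which holds Poli, Mad2l2, Rev3l and Rad18, had 9 of its 16 tested genes called (56.25%, 6 lower and 3 higher). The share of 28.3% therefore does not describe the routes above alone. The median difference of the 99 was -0.13, against -0.24 for all genes. Those called lower and changed most were Poli and Mad2l2, which serve synthesis past lesions, the end-joining polymerase gene Poll and end-joining factor gene Nhej1, the Fanconi core factor gene Faap100 and the crosslink nuclease gene Dclre1b. Poli read 5.23, 4.92 and 4.97 against 7.56, 7.15 and 6.46 (-2.02, SE 0.31), and Mad2l2 read 5.86, 6.30 and 6.14 against 7.84, 8.16 and 7.19 (-1.63, SE 0.29). Faap100 differed by -1.37 (0.11 at another probe set, not passing) and Dclre1b by -1.29 (-0.18). Poll and Nhej1 had Lower-SP means under log2 4, and with values under 4 set to 4 they were at least 2.52-fold and 1.70-fold lower.

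Those called higher and changed most were the checkpoint clamp loader gene Rad17, Ercc6, which couples excision repair to transcription, the recombination gene Rad54l, Rev3l, the TFIIH kinase gene Cdk7 and the ubiquitin ligase gene Rad18. Rad17 read 7.001, 7.02 and 6.57 against 4.82, 4.57 and 4.83, the largest rise of the list (2.12, SE 0.23, 4.35-fold, adjusted p = 0.0022). Ercc6 rose by 1.74 (SE 0.32), from 5.41, 5.30 and 6.05 in Upper-SP to 7.51, 6.83 and 7.65. Rev3l, the catalytic subunit of the polymerase that Mad2l2 serves, rose by 1.52 (SE 0.31), where Mad2l2 fell. Rad54l (1.65), Cdk7 (1.28) and Rad18 (1.22) had other probe sets that did not pass, at 1.64, -0.14 and -0.57 for Rad54l, -0.61 and 0.21 for Cdk7 and 0.06 and 0.74 for Rad18. Of the 4 other end-joining genes tested, Nhej1 and Poll were called lower and Aplf higher (1.14, SE 0.25). That is 75% of very few genes, beside 27.7% of all genes (20.7% lower and 7.05% higher). Of the 16 other excision repair genes tested, Ercc6, Cdk7, Rad23b (1.06, with -0.34, 0.08 and 0.25 not passing at others) and Ccnh were called higher and Uvssa lower (-0.65, SE 0.19). These are 25% higher and 6.25% lower, or 31.25% in all, beside the same shares of all genes. Ccnh differed by 0.77 at its brightest probe set, by -1.07 at another that was called lower and by -0.30 at the last, which did not pass. Xab2 (-0.84) and Cetn2 (-0.73) were called lower at a dimmer probe set only.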

How the data were processed

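Gene expression was measured on 6 one-colour mouse arrays of Affymetrix probe sets, 3 per fraction. Per the labels' protocols, RNA was labelled with biotin after 2 rounds of in vitro transcription, which can favour the 3′ ends of transcripts. The deposited values are log2 expression per probe set, made by the authors with GCOS 1.0 and GCRMA per the submitters' processing notes, with parameters and genome build not given in the sources used here. GCRMA, as usually run, corrects background by probe sequence and sets the probe intensities of all arrays to the same distribution before summary, in which case a change in total RNA per cell is not visible.

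After 64 control probe sets were left out, 45037 remained, of which 34945 carried 1 gene symbol in the array annotation and 19613 were tested. Fractions were compared with limma 3.58.1 in R 4.3.3 (lmFit and eBayes, with the prior variance following the mean level; 4 residual and 3.80 prior degrees of freedom; two-sided p, Benjamini-Hochberg). A gene was read through its brightest tested probe set. The fit was tested on simulated data. The members, lists, tests and alternatives were chosen with earlier results of these data known. Full values are given for members that passed, whose probe sets disagreed in call or, by over log2 0.5, in sign, or that changed most in a route, and for others after their values were seen; of the other repair genes, the 6 changed most in each direction are named, and Rad23b, Ccnh, Aplf, Uvssa, Xab2 and Cetn2 were added after their values were seen. Marker lists for stem cells, neutrophils, proliferation, B and plasma, T and NK, erythroid, macrophage and megakaryocyte cells were read as averages. The number of arrays limits the precision, and p-values measure the spread between pools. The alternatives changed the filter, the scaling, the variance model, the probe sets of a gene and the arrays used.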

Additional observations from a re-analysis of the deposited data

How the results depend on the processing

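No called repair probe set changed sign under any alternative run, and 1 of the 8, the dimmer of Ddb2, was called in all of them. Member probe sets called higher, 1 in the report, numbered 0 with no filter, 0 with a filter at log2 6, 2 with quantile normalization, 2 with cyclic loess, 6 with array weights and 0 with the replicate number as a block, and 0 to 3 with 1 array left out. The shares of all probe sets called higher were 2.78%, 13%, 12.4%, 13.2%, 19.1% and 8.57% in those settings, in the same order. Those called lower, 7, numbered 4 with no filter, 18 with array weights, 4 with Lower-SP replicates 1 and 2 left out and 2 to 9 with 1 array left out, where 3.73%, 35.6%, 7.77% and 3.98% to 20.1% of all were lower. Member genes higher, 0, numbered 1 with quantile normalization, cyclic loess or Lower-SP replicates 1 and 2 left out, 4 with array weights, 1 with the smallest p per gene, and 0 to 2 with 1 array left out, where 8.89%, 9.76%, 4.15%, 13.8% and 2.98% to 8.2% of all genes were higher (with the smallest p per gene no share was computed). Member genes lower, 5, numbered 3 with no filter, 10 with array weights, 1 with Lower-SP replicates 1 and 2 left out and 1 to 6 with 1 array left out, where 5.12%, 41.9%, 8.41% and 4.43% to 24.4% of all genes were lower. Of the other repair genes, 12 were higher (7.05% of all genes). They numbered 6 with Lower-SP replicates 1 and 2 left out (4.15% of all genes) and 4 to 11 with 1 array left out (2.98% to 8.2%). Lower were 16 (20.7% of all genes). They numbered 10 with no filter (5.12%), 10 with a filter at log2 6 (26.9%), 28 with array weights (41.9%) and 9 with the replicate block (15%). They were 10 with Lower-SP replicates 1 and 2 left out (8.41%) and 4 to 16 with 1 array left out (4.43% to 24.4%). Fewer arrays enter the fits that leave arrays out, and the fit on Lower-SP replicate 3 alone assumes that it varies like the other arrays; for the other settings the cause was not tested. The numbers were not taken to pair the samples, because the labels do not say that they do. Deviations of same-numbered arrays correlated at -0.05, -0.03 and -0.02. The neutrophil marker average, however, was lowest on replicate 3 in both fractions (6.64 and 5.26), so these correlations do not settle the pairing. With the block a probe set each of Atr, Rad50 (adjusted p = 0.059 in limma) and Apex1 lost its call. The dimmest of Apex1 and the dimmer of Wrn gained one.

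Of the 49 uncalled repair probe sets, 19 changed sign in at least 1 alternative. With Lower-SP replicates 1 and 2 left out, the Atr probe set at -0.15 became 0.13 and the Trp53bp1 one at 0.05 became -0.15. The dimmer Topbp1 probe set became -0.48, the brighter Fancc one 0.30 and the brighter Msh3 one -0.10. The Parp1 probe set at -0.22 became 0.049. Brca1 became -0.57, Blm -0.37, Ercc2 0.13 and Xrcc1 0.41. The brightest probe sets of Atr, Trp53bp1 and Topbp1, and the called one of Atr, changed sign in no alternative. With array weights they became 0.19 for Chek2, -0.027 for Brca2, 0.13 for Fancd2, -0.10 for Ercc3 and -0.053 for the dimmer probe set of Msh3. Xpa became 0.02 with median centring, Xrcc1 0.0024 with cyclic loess and Ogg1 -0.0057 with quantile normalization. With 1 array left out the sign turned within the range -0.91 to 0.46 for Chek2, -0.19 to 0.61 for Brca1 and -0.0097 to 0.45 for Brca2. The ranges were -0.49 to 0.27 for Fancd2, -0.35 to 0.22 for Xpa and -0.45 to 0.016 for Xrcc1. They were -0.11 to 0.14 for the Trp53bp1 probe set at 0.05 and -0.86 to 0.24 for the dimmer of Ercc1. The brightest Parp1 probe set ran from -0.056 to 0.34 and the dimmer Msh3 one from -0.16 to 0.25. Too dim to test were 39 of 96 repair probe sets, and a change was not detectable here in the 5 genes with no other probe set.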
